A study of Caenorhabditis elegans with 4 samples.

Results

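The regions described here are the 280 sites on chromosome II, of 1702 on all 6 chromosomes, at which the authors called binding of LSY-2 in a list that combines their chromatin immunoprecipitation (ChIP) replicates. They were chosen by chromosome alone, as every entry of the deposited combined list that lies on II, so neither their strength nor their repeat in the replicates entered the choice. The nematodes (*Caenorhabditis elegans*) were OP240 hermaphrodites at the second larval stage (L2), grown at 20 degrees C. Their genotype combined the mutation unc119(ed3) with the transgene wgIs240, which was introduced by bombardment, holds unc119 and supplies lsy-2 with TY1, EGFP and FLAG tags, and the strain is listed as outcrossed 3 times. All 4 samples, 2 ChIP and 2 input, carried this genotype, and no untagged strain was among them. The libraries come from whole animals, so a region can reflect any cells in which the fusion protein was made. Nothing in the labels states that the replicates were separate cultures, and the spread between them may be technical.

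LSY-2 is a nuclear C2H2 zinc finger protein. It is known from genetic screens in the worm as one of the factors that make the left and right ASE taste neurons different, where it acts upstream of the microRNA lsy-6 to permit the left fate. A ChIP region marks a stretch that the caller scored as enriched in the DNA recovered with the tagged protein. It does not by itself say which gene the protein acts on. Chromosome II carries other genes of the same decision, among them cog-1, a homeobox gene of the right fate, and die-1, a zinc finger gene of the left fate. Whether any region described here lies near them was not determined, because the annotation at hand belongs to another genome build. All positions below are in build WS180, and regions are named by position with no gene assigned.

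The strength of a region is given as −log10 of the q-value that the authors' peak caller assigned to it, so that larger values mean stronger statistical support. A q-value depends on sequencing depth as well as on enrichment. Depth is unknown for these lists, so values rank regions within a list, and a difference between lists is no measure of a difference in binding. Per chromosome, the replicate 1 list held 146 to 236 regions and the replicate 2 list 91 to 172. On II they held 193 and 140.

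Strong LSY-2 regions on chromosome II were also called in both replicate lists, and the strongest stood far above the chromosome's median −log10 q of 7.82. The combined list draws on the same 2 ChIP samples, so the replicate calls are no separate evidence. The strongest, chrII:3076640-3077835, was 1196 bp wide and ranked 4 among all regions of the genome. In the combined list its −log10 q was 190, against 178 in replicate 1 alone and 153 in replicate 2 alone. It also stood alone, with its nearest neighbour 102 kb away. The next was chrII:10868439-10869473, whose −log10 q was 152 there, 155 in replicate 1 and 138 in replicate 2. Among the regions of the chromosome it was the only 1 of the 129 called in both replicates whose combined value did not exceed both replicate values. The replicates placed it almost identically, at 10868442 to 10869147 and at 10868446 to 10869148, and the centres of these 2 calls were 2.5 bp apart.

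The region chrII:8184860-8185654 followed, and its −log10 q was 143 there, 138 in replicate 1 and 116 in replicate 2. The region chrII:13871909-13872875 had 135, 111 and 98.0 in the same order. Both stood apart from other calls, with gaps of 41.1 and 35.7 kb to the nearest. Beyond these 4 the combined values fell to 117 at chrII:14349276-14350215 and 108 at chrII:5543297-5544455, and the replicate 2 values fell faster, to 66.2 and 36.6. The latter region showed the largest ratio between replicates among the 20 strongest, where 71.2 in replicate 1 stood against 36.6 in replicate 2, a ratio of 1.95. At the other extreme, chrII:4376476-4377315 had nearly equal values of 53.6 and 50.7 and a ratio of 1.06.

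**Figure D1:**
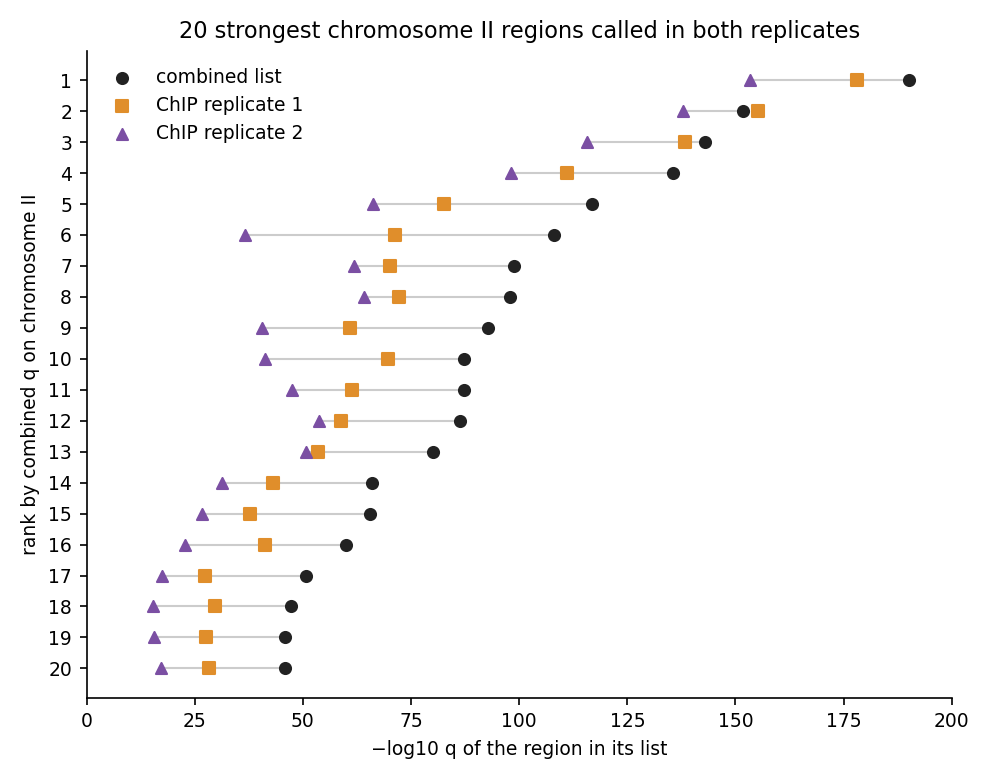
−log10 q (x axis) of the 20 strongest chromosome II regions called in both replicates, ordered by their rank in the combined list (y axis), with circles for the combined list, squares for ChIP replicate 1 and triangles for ChIP replicate 2. Replicate 1 lies above replicate 2 in all 20, and in 115 of all 129 chromosome II regions called in both. Combined values run from 190 at rank 1 to 45.8 at rank 20.

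Across the 20 strongest regions called in both replicates, the combined −log10 q ran from 45.8 to 190 with a median of 87.2. The replicate 1 values ran from 27.4 to 178 with a median of 61.1, and the replicate 2 values from 15.3 to 153 with a median of 44.4. Replicate 1 was the stronger in 20 of 20, and in 115 of all 129 regions of both replicates on II (89.1%). On the other chromosomes it was the stronger in 90.1% of overlapping pairs. Their combined widths were 438 to 1925 bp with a median of 706.5 bp. The centres of the replicate calls were 2.5 to 67.5 bp apart, with a median of 19.8 bp, which is a small part of any region's width. The widest of the 20, chrII:5660850-5662774, was called over 1696 bp in replicate 1 and 1675 bp in replicate 2, with −log10 q values of 37.8 and 26.8. Here both replicates called a broad stretch, and its combined value of 65.5 ranked it 15 on the chromosome.

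Several of the strongest regions had a weaker companion close by, at a share near that of all regions. Of the 20, 9 (45%) had another combined region within 10 kb, against 42.5% of all regions on II and 45.9% over all chromosomes. In 9 of 9 the neighbour was the weaker of the pair, as a high rank makes likely. Of these neighbours, 6 were themselves called in both replicates and 3 in replicate 1 only. The shortest distance, 1290 bp, separated chrII:6489672-6490213, with a combined −log10 q of 59.9, from a region of 984 bp with 5.39. The second strongest region of the chromosome had a companion 2928 bp away at chrII:10872402-10872895, with 20.7, called in both replicates. At chrII:7104884-7105445 and chrII:7110961-7112047, 5515 bp apart, the values were nearly the same at 45.8 and 45.6. Around chrII:5055027-5055722, with 87.2, a companion with 6.16 lay 1627 bp away. Replicate 1 had a further call in the gap between them, chrII:5056240-5056969 with 4.49, which overlapped nothing in the combined list.

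Of the 280 regions, 129 overlapped a region in both replicate lists by at least 1 bp, which was 46.1% (95% exact Clopper-Pearson interval 40.1 to 52.1%), against 40.7% over all chromosomes. Another 60 were found in replicate 1 only (21.4%, 16.8 to 26.7%), against 22.0% over all chromosomes. Replicate 2 alone held 9 (3.21%, 1.48 to 6.01%), against 2.35%. The remaining 82 were found in neither list (29.3%, 24.02 to 34.99%), against 34.9%. These intervals treat regions as independent and cover counting error only.

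**Figure D2:**
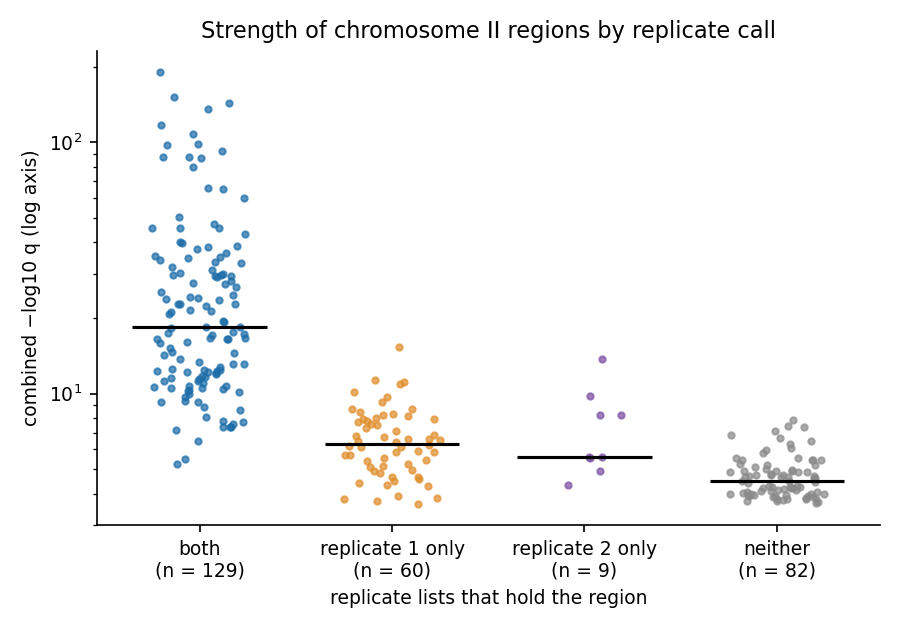
Combined −log10 q on a log axis (y axis) of each of the 280 chromosome II regions, grouped by the replicate lists that hold an overlapping region (x axis), with 1 point per region, spread sideways for legibility, and a line at each median. The medians are 18.4 for regions of both replicates, 6.32 for replicate 1 only, 5.62 for replicate 2 only and 4.49 for neither.

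The replicate calls followed strength closely. Regions of both replicates had a median combined −log10 q of 18.4 and a range from 5.24 to 190. Those of replicate 1 only had a median of 6.32 (3.65 to 15.4), those of replicate 2 only 5.62 (4.34 to 13.8) and those of neither 4.49 (3.68 to 7.83). On the other chromosomes the medians of these 4 classes, in the same order, were 19.3, 7.51, 6.38 and 4.73. The largest values there were 282, 25.2, 10.7 and 13.9. The combined list draws on the same 2 ChIP samples, so this ordering is a description and no separate evidence. The ranges overlapped, but the strongest 77 regions of the chromosome were all called in both replicates, down to a −log10 q of 15.8. Among the strongest 70 regions the share in both was 100% (94.9 to 100%), in the next 70 it was 70.0% (57.9 to 80.4%), in the next 70 it was 14.3% (7.07 to 24.7%), and among the weakest 70 it was 0 of 70 (exact upper limit 5.13%). These shares by strength are given for II only, with no matching shares for the other chromosomes. The weakest region still called in both was chrII:11238951-11239254, with a combined −log10 q of 5.24.

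The first break in that order was at rank 78, chrII:11748758-11750341. This 1584 bp region had a combined −log10 q of 15.4 and a replicate 1 value of 10.7, the strongest of the 62 replicate 1 calls on II with no partner in replicate 2. It lay 496 bp from its nearest combined neighbour, inside a run of 5 regions. Other regions of replicate 1 only were weaker, with chrII:10839978-10840401 at 11.3 in the combined list and 4.43 in replicate 1, and chrII:5389917-5390340 at 11.2 and 6.84. Of the 9 found in replicate 2 only, the strongest was chrII:5334731-5337709, with 13.8 in the combined list and 5.62 in replicate 2. Its replicate 2 call covered 755 of its 2979 bp, and no replicate 1 region touched it. The next of these 9 were chrII:14441049-14441435, with a combined value of 9.77, and chrII:7698936-7699319, with 8.22.

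Regions that appeared in the combined list alone were weak on II. The strongest of the 82 was chrII:15207928-15208440, with a combined −log10 q of 7.83 and rank 140 of 280, followed by chrII:9057149-9057585 with 7.42 and chrII:2055328-2056094 with 7.37. On the other chromosomes, regions of this kind reached 13.9, with a median of 4.73 over 512 regions. The weakest entries of the chromosome II list were chrII:8276037-8276328, with 3.68 and no replicate partner, and chrII:3370097-3370358, with 3.65. The latter had a larger value in replicate 1, 4.68, than in the combined list.

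Read from the replicate lists, 131 of the 193 replicate 1 regions on II overlapped a replicate 2 region (67.9%, exact interval 60.8 to 74.4%), against 64.0% over all chromosomes. In the other direction 131 of the 140 replicate 2 regions overlapped a replicate 1 region (93.6%, 88.1 to 97.0%), against 94.2%. Both chromosome II shares were therefore close to the background. By strength, again given for II only, 49 of the strongest 49 replicate 1 regions were shared and 13 of the weakest 48 (27.1%, 15.3 to 41.8%). Of replicate 2, 70 of the strongest 70 regions were shared, as were 34 of the next 35 and 27 of the weakest 35 (77.1%, 59.9 to 89.6%). Of the 62 replicate 1 calls without a partner, 60 were taken up in the combined list, as were 9 of 9 of replicate 2. These counts are also given for II only, with no matching counts for the other chromosomes. The 2 replicate 1 calls left out were chrII:5056240-5056969 and chrII:6587205-6587699, each with a −log10 q of 4.49.

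**Figure D3:**
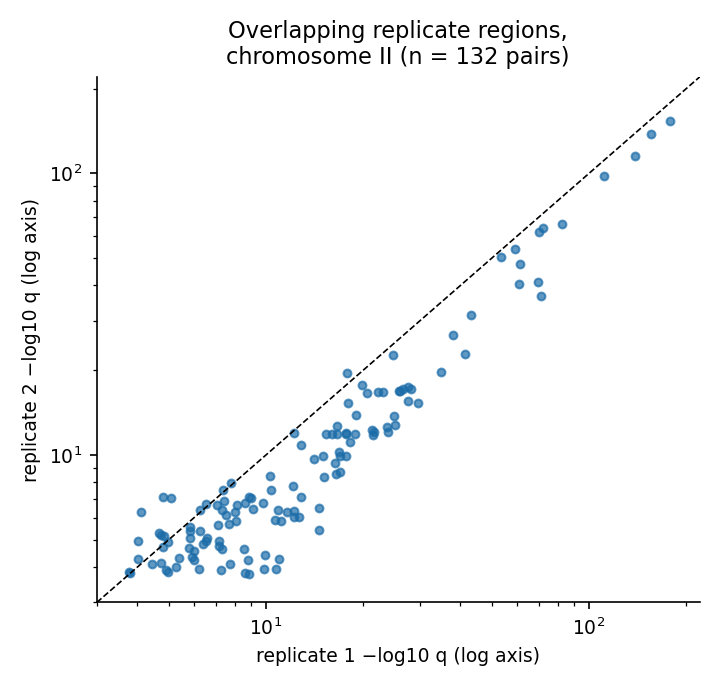
−log10 q in replicate 1 (x axis, log) against replicate 2 (y axis, log) for the 132 pairs of overlapping chromosome II regions, 1 point per pair, with a dashed line of equal values. In 117 of 132 pairs the point lies below the line, and the order is largely shared (Spearman rho 0.88).

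The 131 shared regions of each list formed 132 overlapping pairs. Over these pairs the −log10 q of both replicates was correlated, at 0.88 by Spearman's rho and 0.985 by Pearson's r, and over the 577 pairs of other chromosomes the values were 0.86 and 0.92. These are descriptions across regions of the same libraries, and regions without a partner are left out. Replicate 1 had the larger −log10 q in 117 of 132 pairs (88.6%), with a median ratio of 1.37 and a middle 50% from 1.15 to 1.77. The other chromosomes were nearly the same, with replicate 1 larger in 520 of 577 pairs (90.1%), a median ratio of 1.40 and a middle 50% from 1.16 to 1.69. The extremes of the ratio on II were 0.65 and 2.73, beside 0.62 and 3.88 on I and 0.55 and 3.85 on X. They were wider apart on III (0.16 and 33.6), IV (0.33 and 14.1) and V (0.60 and 12.6). Positions also matched closely, with a median distance of 24 bp between the centres of paired calls on II and 28.5 bp elsewhere.

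Among the 119 regions of both replicates in the upper 50% of the combined list by strength, the ratio was most extreme at a few sites. At chrII:12459359-12459721 replicate 1 had a −log10 q of 10.7 and replicate 2 had 3.93, a ratio of 2.73. The ratio was 2.56 at chrII:10541848-10542619, with 11.0 against 4.29, and 2.50 at chrII:12102234-12102730, with 9.89 against 3.95. In these 3 cases the replicate 2 value lay near the lowest of its list on II, 3.77. In the other direction, chrII:8143232-8143784 had 4.10 in replicate 1 and 6.28 in replicate 2, chrII:11967444-11967850 had 4.81 and 7.09, and chrII:3958533-3959381 had 4.03 and 4.95. All 6 of these sites ranked 69 or lower on the chromosome, and with 1 value per library no error can be given for a single ratio.

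Regions on II were mostly narrow. The median width was 455.5 bp (95% order-statistic interval 426 to 479 bp), the middle 50% ran from 362 to 615 bp, and together they covered 159 kb or 1.05% of the chromosome's span. On the other chromosomes the median was 459 bp. Width followed strength to a degree, with a Spearman rho of 0.46 over the 280 regions, 0.41 over the 129 of both replicates and 0.07 over the 82 of neither. The caller sets both quantities. Regions over 1000 bp numbered 20, of which 14 (70%) were called in both replicates, against 46.1% of all 280 regions. This share is given for II only, with no matching share of wide regions for the other chromosomes. Width and strength were not separated in it.

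The widest, chrII:11633885-11637824, spanned 3940 bp and joined 3 replicate 1 calls and 2 replicate 2 calls. Its combined −log10 q was 29.5, whereas the strongest of its replicate calls had 9.01 and 7.05. That combined value was 3.28 times the stronger replicate value, the largest such ratio among the 129 regions, whose median was 1.55. The second, chrII:6345831-6348930, spanned 3100 bp and had a combined value of 29.1, while replicate 1 had 14.6 and replicate 2 had 6.50. The third was the replicate 2 region at 5334731 described above, and the others were chrII:9283565-9285964, with 13.1, and chrII:9059967-9062235, with 14.7, both found in both replicates. At the other end, 7 regions were under 200 bp wide. The narrowest, chrII:11614808-11614845 at 38 bp and chrII:2054705-2054808 at 104 bp, were singled out after their values were seen. Both had a −log10 q of 4.25 and no partner in either replicate.

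LSY-2 regions were spread along the whole chromosome, and more thinly over its left end. The stretch between the outermost called bases of any list, 24312 to 15232963, was divided into 10 equal intervals of 1.52 Mb. The first 3 intervals held 17, 21 and 18 combined regions. The next 5 held 32, 31, 34, 32 and 41, the last of these being the densest at 27.0 regions per Mb. Density then dropped to 20 regions in interval 9 and rose again to 34 in interval 10, at the right end. Regions of both replicates followed a similar course, with 21 in interval 8, 20 in interval 10 and 6 in interval 2. Of the 20 strongest regions, none lay in intervals 1, 2 and 9, 5 lay in interval 4, 4 in interval 8 and 3 in interval 10.

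**Figure D4:**
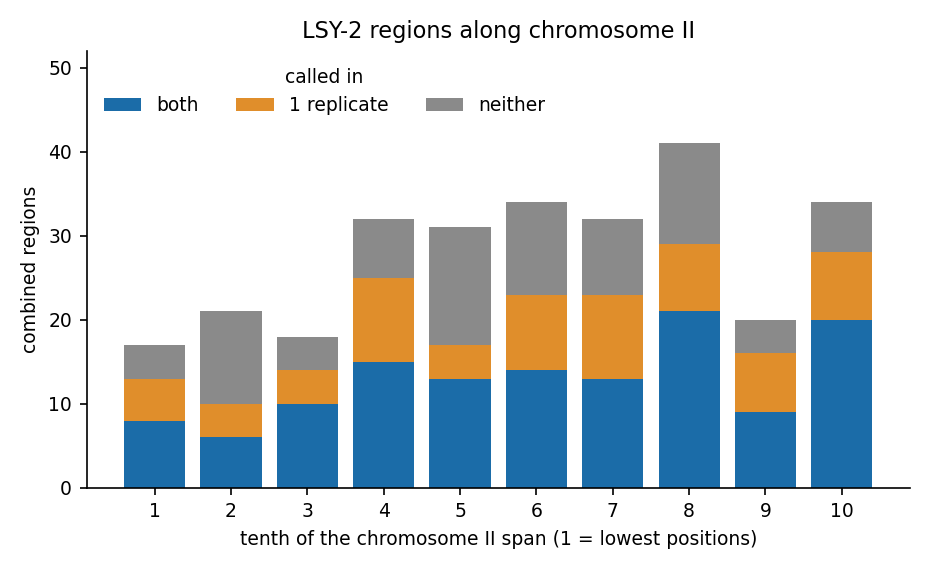
Number of combined regions (y axis) in each of 10 equal intervals of the chromosome II span (x axis, from low to high positions), stacked by whether the region was called in both replicate lists, in 1 or in neither. Interval 8 holds most, with 41 regions, and interval 10 at the right end holds 34, of which 20 were called in both.

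The share called in both replicates ran from 28.6% (11.3 to 52.2%) in interval 2 to 58.8% (40.7 to 75.4%) in interval 10, and these intervals overlap. Interval 2 also had the largest share of regions in neither list, 11 of 21, and a low median −log10 q of 5.53. Interval 5 was similar, with 14 of 31 in neither list and the lowest median, 5.46. The central 33.3% of the span held 98 of the 280 regions (35%, 95% exact interval 29.4 to 40.9%), and 39.6% (37.0 to 42.2%) of those on the other chromosomes. In the replicate 1 list 63 of 193 lay there (32.6%), against 36.1% over all chromosomes. In replicate 2 it was 47 of 140 (33.6%), against 37.8%. Coverage by reads along the chromosome is not known, and its part in these counts was not tested.

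Neighbouring regions on II were separated by a median of 34.7 kb. Of the 279 gaps, 24 were at most 2 kb and 72 at most 10 kb, and 119 of the 280 regions (42.5%, 36.6 to 48.5%) had another within 10 kb. Linking such neighbours gave 30 pairs, 12 runs of 3, 2 runs of 4 and 3 runs of 5, while 161 regions stood alone. The runs of 5 lay at chrII:10537909-10552883, with 2 of 5 called in both replicates, at chrII:11742259-11759613, with 2 of 5, and at chrII:11960553-11980434, with 4 of 5. The last was the most repeatable of the 3, and its strongest region had a combined −log10 q of 38.9. The run at 11742259 ended in chrII:11759176-11759613, with 50.6, which ranked 17 on the chromosome.

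The closest neighbours were chrII:9282676-9283152 and chrII:9283565-9285964, 412 bp apart and both called in both replicates, with −log10 q values of 14.5 and 13.1. A gap of 415 bp separated chrII:11746526-11747171 from chrII:11747587-11748261, with 7.96 and 7.15, in the run of 5 already described. At chrII:3958533-3959381 and chrII:3959823-3960703, 441 bp apart, only the left one was called in the replicates, and the values were 9.23 and 3.94. Calls this close can be parts of the same site, which the lists cannot resolve. The longest empty stretches were 588 kb between 732749 and 1320323 and 393 kb between 1661607 and 2054705, both near the left end. The first was closed on its right by a strong region, chrII:1320323-1321201, with a −log10 q of 33.2.

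The stretch of up to 100 kb with most regions consisted mostly of weak calls. From 2188055 to 2253045, within 65.0 kb, lay 8 regions, of which 6 were called in neither replicate. Their −log10 q values ran from 3.77 to 5.53. The seventh had 4.42 and was found in replicate 1 only. The exception was chrII:2232432-2232809, with a combined value of 19.2 and replicate values of 12.2 and 6.04. A second stretch of 8 regions, from 2194223 to 2289786, overlaps it.

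Beside the other chromosomes, II was of middling density in the combined list, and its share of repeatable regions was among the higher ones. It held 18.4 regions per Mb of span against 17.0 on the others together, a ratio of 1.09 (0.95 to 1.23, from the exact interval of its share of regions). With the replicate lists the ratio was 1.17 (0.99997 to 1.37) in replicate 1 and 1.27 (1.05 to 1.53) in replicate 2, and for regions of both replicates 1.26 (1.03 to 1.53). The intervals of all of these overlap, and those of replicate 2 and of regions of both replicates lie above 1. In the replicate 1 and 2 lists II held 12.7 and 9.21 regions per Mb, below III alone (17.4 and 12.7). Its share of regions in both lists, 46.1%, was the highest of the 6, but those of IV (45.6%, 39.8 to 51.5%) and III (44.2%, 38.9 to 49.5%) were nearly the same, and V (39.2%, 33.3 to 45.5%) and X (35.9%, 29.8 to 42.4%) had overlapping intervals. Only I lay clear of it, with 31.3% (25.9 to 37.1%). No test across samples can be made with 2 ChIP libraries, so nothing here is called particular to chromosome II.

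**Figure D5:**
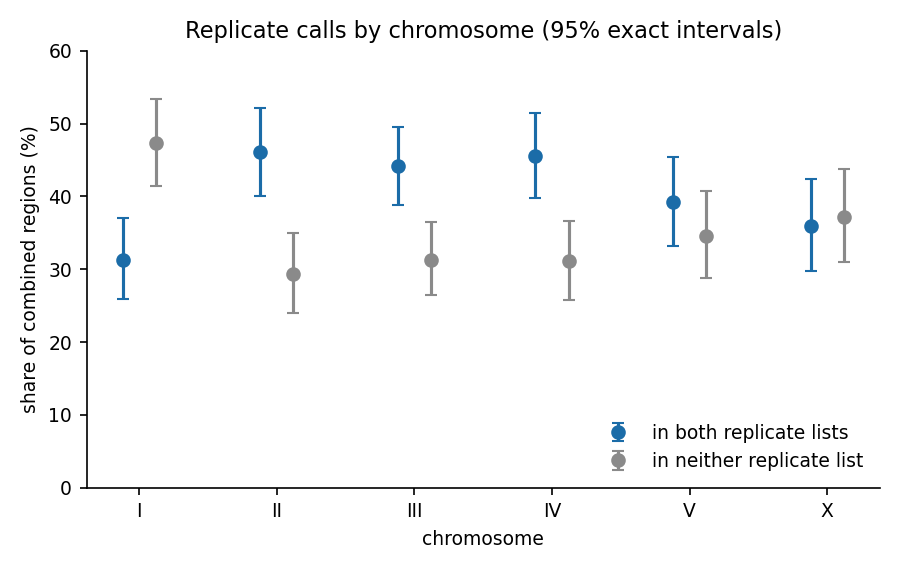
Share of combined regions, in percent (y axis), called in both replicate lists and in neither, for each chromosome (x axis), with 95% exact intervals that cover counting error only. Chromosome II has 46.1% in both and 29.3% in neither, close to III and IV, and chromosome I has 31.3% and 47.3%.

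Strength on II was also close to the rest. The median combined −log10 q was 7.82 (6.88 to 9.29) on II and 7.99 (7.58 to 8.44) on the other chromosomes. Of the strongest 170 regions of the genome, which are 10% of the list, 26 lay on II, and they made up 9.29% (6.16 to 13.3%) of its regions, against 10.1% (8.61 to 11.8%) elsewhere. The share with a neighbour within 10 kb was 42.5% on II, between 36.8% on X and 53.8% on III. The intervals of II, 36.6 to 48.5%, and III, 48.5 to 59.2%, barely met.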

How the data were processed

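Per the labels' protocols, synchronized worms were fixed in 2% formaldehyde, and sheared chromatin was immunoprecipitated through the GFP tag with goat antibodies, with part of each lysate kept as input. Samples were grouped by title, since the free-text descriptions mix ChIP and input. The deposited files were 3 lists of regions, 1 per ChIP sample and 1 combined, made with PeakSeq on WormBase WS180 per the file headers and source column. Each region has a deposited q-value, a p-value adjusted by the caller, and −log10 of it was computed here. Not given in the sources used here are the aligner, caller settings, threshold, read totals, the use of the input and the way of combining replicates. No input list was used.

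Regions of different lists were matched by an overlap of at least 1 bp, and where several replicate regions matched, the strongest gave the value. A chromosome's span was bounded by its outermost called bases in the 3 lists. Shares have 95% exact Clopper-Pearson intervals and medians order-statistic intervals. Both cover counting error only. No test was made, because 2 ChIP libraries allow none over samples. Regions named were the 20 of smallest q in both replicates, the 5 widest, the 3 strongest of each single-list class, the 2 weakest, replicate regions without a combined partner, extreme gaps, the densest stretch and extreme replicate ratios. Runs of regions, the narrowest regions and others were added later. The members, lists and this rule were chosen with earlier results of these data known. A gene table of assembly WBcel235 was used only for the chromosomes of cog-1 and die-1. Sequences of the regions are not printed, since no genome of the lists' build was used here. Matching was checked on planted overlaps. The software was Python 3.11.15 (scipy 1.17.1, pandas 2.3.3, numpy 2.4.6, matplotlib 3.10.9).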

Additional observations from a re-analysis of the deposited data

How the results depend on the processing

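Of 51 alternative values, 34 stayed within the 95% interval of the value reported and 17 moved outside it. All 8 for regions in both or in neither replicate list stayed, as did all 7 for the central share. The setting with the stronger 50% also cut the replicate lists, so it cannot show that these shares are independent of strength. Against the full replicate lists, the share in both ran from 100% of the strongest 70 regions on II to 0 of the weakest 70. Cutting the replicate lists to equal length moved the shared part of replicate 1 to 86.3% and that of replicate 2 to 81.4%. This setting drops the weakest replicate 1 regions, which leave the total of the former share and are no longer possible partners in the latter. The density ratio to the other chromosomes ran from 1.17 to 1.27 with either replicate list by itself, and it was 1.26 when only regions of both replicates counted; the cause was not tested. The median width was 397 to 421 bp with a single list, and 497 bp both among regions of both replicates and in the stronger 50% of each list. The median −log10 q was 6.72 to 7.33 with a single list and 18.4 among regions of both replicates. The share with a neighbour was 28.6 to 33.7% with a single list, 24.0% among regions of both replicates and 28.5% in the stronger 50%. These settings leave fewer regions, and the part of that in the lower shares was not tested. The share was 31.4% within 5 kb and 56.8% within 20 kb, where the distance sets the direction by construction. Spearman's rho between replicates was 0.93 over pairs in the stronger 50% of replicate 1. No paired analysis was possible because the inputs entered no comparison and no result comes from a test between groups. With depth unknown, absence from a list shows only that a region was not called there.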
